A study of Eohaustorius estuarius with 16 samples.

Results

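The 100 contigs described here were those whose signal was spread most widely among cyfluthrin-exposed samples of the estuarine amphipod Eohaustorius estuarius, relative to their spread among control samples. They were chosen from 8507 contigs (assembled transcript sequences, each represented by 1 probe) measured on single-colour Agilent arrays. A contig could be chosen if its mean log2 signal over the controls was 7 or more, if it was not among the 200 with the highest control means, and if the ranges of the groups overlapped. Of the 3835 contigs that met these limits, 573 had a standard deviation (SD) of at least 0.5 log2 units over the cyfluthrin arrays. The 100 with the highest ratio of cyfluthrin SD to control SD were taken. Both SDs were computed after each group's replicates 1 to 4 and 5 to 8 had been centred separately, because these lay on different slides, and cyfluthrin replicate 7 was not used.

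Cyfluthrin is a pyrethroid insecticide. Pyrethroids hold the voltage-gated sodium channels of nerve cells open for longer than normal, which leads to repeated firing and then paralysis, and crustaceans are among the animals most sensitive to them. Burrowing amphipods take such compounds up from the sediment in which they live. The contigs carry neither gene names nor sequences in the files, so they are given by identifier and no function is attached to any of them. All identifiers begin with eohaus_trim.v2-, which is left out here.

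The study sent whole-body samples and shared RNA extracts to 6 laboratories to compare their microarray results, and the 16 arrays analysed here are the whole-body set of laboratory A. The 8 control samples came from amphipods kept on sediment spiked with solvent alone, and the 8 cyfluthrin samples from amphipods kept on sediment spiked with cyfluthrin at a nominal 1.6 µg/kg, both for 10 days. Strain, age and sex of the animals are not given in the labels, which also do not say whether a sample held 1 animal or several, or whether samples came from separate exposures. The p-values therefore measure only the spread between these samples. Without gene names the whole-body origin could not be checked against marker genes. In whole-body RNA, fewer cells of a type and less RNA per cell cannot be told apart.

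Each slide carried 4 controls and 4 cyfluthrin samples. The controls filled the first row of both slides and the cyfluthrin samples the second, and the effects of row and exposure cannot be told apart. The 75th percentile of the processed signal lay between 274 and 623 on 15 arrays and at 950 on cyfluthrin replicate 7, whose median negative-control signal was 73.5 against 37.5 to 51 on the others. Cyfluthrin replicate 8 also stood apart, in the scanner's marks of uneven spots. In a block of this array, rows 1 to 48 and columns 51 to 72 of a grid of 192 rows and 82 columns, 38 of 1023 spots (3.71%) were marked as outliers, against 0.282% in the rest of the array. The same block held 0.0% to 0.978% marked spots on the other 15 arrays. Marked spots were left out, but low spots remained there that carried no mark, and they bear on many of the 100 contigs.

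By the values that chose them, the 100 contigs had cyfluthrin SDs of 0.50 to 2.50 log2 units, with a median of 0.86. Their control SDs ran from 0.08 to 1.16, with a median of 0.28. The ratio of the SDs ran from 2.13 to 10.09 with a median of 2.74, where the 3835 contigs had a median of 1.05. At the limit, the ratio was 2.139 for contig_4724, 2.137 for contig_899 and 2.129 for contig_807, the last 3 taken, and 2.127 for contig_1604, 2.123 for contig_898 and 2.121 for contig_4510, the first 3 left out. The ratios on either side of the limit thus differed only in the third decimal. With the groups exchanged, 26 of the 3835 contigs had a control SD of at least 0.5 and a ratio of control SD to cyfluthrin SD of 2.13 or more, against the 100 in the direction of the rule. The rule fixed the count of 100 and the limit of 2.13, and its limit of level applied to the control means only. These counts are thus descriptions, and no excess of spread after cyfluthrin is read from them. Without cyfluthrin replicate 8 the counts were 78 and 62. Leaving out each of the other 14 arrays in turn gave 92 to 154 contigs in the direction of the rule and 26 to 49 in the other. Among contigs whose 2 spots lay within 1 log2 unit of each other on every array of the rule, with replicate 8 included, the counts were 42 and 16.

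**Figure D1:**
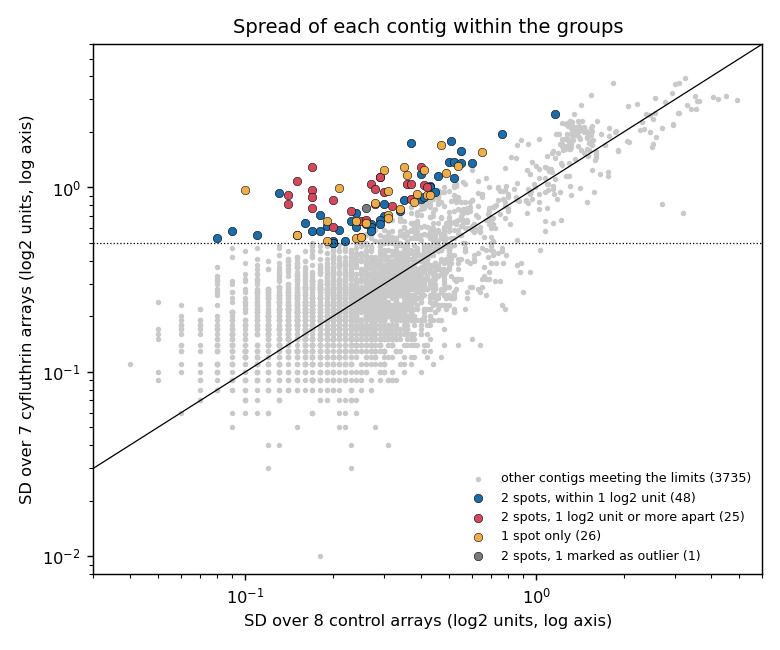
SD of each contig over the 7 cyfluthrin arrays (vertical axis) against its SD over the 8 control arrays (horizontal axis), both in log2 units on log axes, with the line of equal SD and the limit of 0.5 dotted. Grey points are the 3735 other contigs meeting the limits and coloured points the 100 chosen, by the agreement of their spots. The chosen contigs form the upper left edge of the cloud, which is how they were selected.

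A limma fit of absolute deviations from the mean within group and slide called 2 of 7337 contigs (0.0273%) at an adjusted p under 0.05, both more widely spread after cyfluthrin. It called 0 of the 100, of which 48 had an unadjusted p under 0.05 in limma. The rule used the same spread, so nothing is read from these counts. In simulated data of the same size with normally distributed noise, this fit recovered 7.0% of 200 contigs whose spread had been multiplied by 5. It thus missed most such contigs there. In the measured data its calls depended on the settings, with 0 at a floor of 1 and 147 at a floor of 20.

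Each contig was assigned to the cyfluthrin array with the largest deviation from the mean of the cyfluthrin arrays on its slide, called its most deviant array here. This scale differs from the difference to the slide's controls, which is printed for single arrays. The deviation was downward in 66 contigs and upward in 34, and in 92 the assigned array was also the lowest or highest of the 7. It lay outside the range of all 8 controls in 95 of the 100 contigs, and in 51.4% of the 3835. Control ranges here pool both slides, so a value inside one can lie beyond the controls of its own slide. Without the assigned array the median ratio was 1.48 in the 100 contigs, down from 2.74, and 0.65 in the 3835, down from 1.05. The cyfluthrin SD was then under 0.5 in 70 of the 100 and in 229 of the 473 other contigs that had reached that limit. Taking away the most deviant of 7 values tends to lower an SD, and the choice of contigs by a large SD bears on its size, so these values are descriptions. Cyfluthrin replicate 8 held the largest deviation in 38 contigs, low in 36 and high in 2. Cyfluthrin replicate 3 held it in 29, low in 18 and high in 11. Cyfluthrin replicate 1 held it in 16, low in 3 and high in 13. Replicate 2 followed with 9, replicate 4 with 6 and replicate 6 with 2, and replicate 5 had none. Among the 3835 contigs, the largest deviation lay on replicate 8 in 19.8%, on replicate 3 in 16.5% and on replicate 1 in 21.2%. Replicates 5 and 6 are among the 3 arrays left on their slide once replicate 7 is out, and they held 4.07% and 4.43%.

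Whether a contig's signal on that array came from 1 spot or from both could be read directly, because 74 of the 100 contigs were printed as 2 spots at separate positions. In 48 of these, the spots differed by 0.01 to 0.81 log2 units on the most deviant array, each taken relative to its own control mean. Over the 7 cyfluthrin arrays the median correlation of their spots was 0.99, as a description, and it exceeded 0.9 in 40 of the 48. In 25 contigs the spots lay 1.18 to 8.11 log2 units apart on the most deviant array, and their median spot correlation was 0.47. In 15 of these 25 a spot lay within the range of its own 8 control values, whereas in 8 both spots lay outside it on the same side and differed in size. An example of the latter is contig_1316, picked after seeing the values, with spot differences of -3.48 and -1.77. In 1 contig, contig_5274, a spot was marked as an outlier there, and the other 26 contigs had 1 spot. The most deviant array of contig_5274 is replicate 2, where its remaining spot read 6.11. That spot read 5.5 to 6.86 on the slide's controls and differed from their mean by -0.03. The dropped spot was brighter, at 8.8 to 9.11 on those controls. The contig's difference of -1.43 thus sets the dimmer spot alone against means of both spots. Behind the name "uneven response among exposed amphipods" there are thus like readings of both spots, on the most deviant array, in 48 of the 100 contigs. In 6 of these 48 a spot still lay within its own control range. In 42 of these 48 the spots also stayed within 1 log2 unit of each other on every array of the rule, and in the others they parted on some array. In 25 contigs the spots gave deviations of different size, and for 27 there is no second usable reading on that array. Both spots read the same labelled RNA, so their agreement bears on the array reading and not on how the RNA was made.

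**Figure D2:**
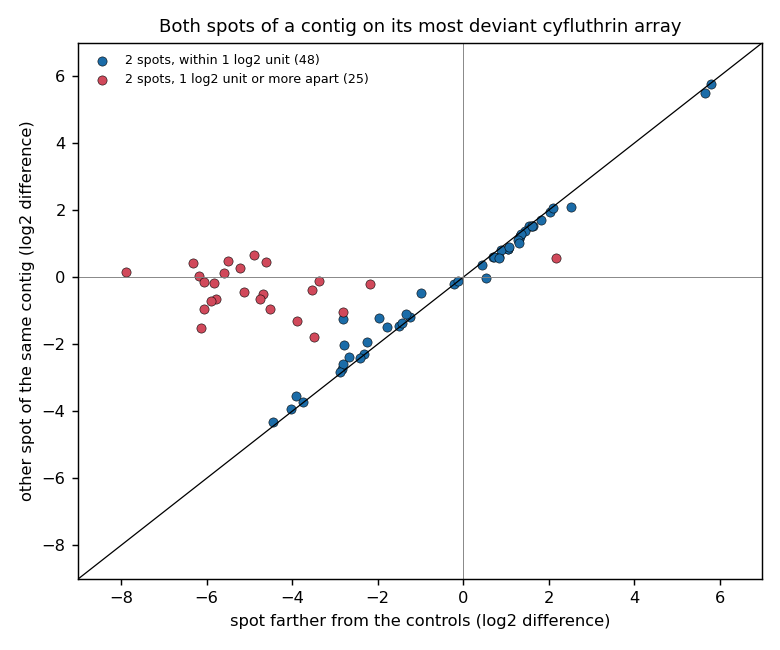
Log2 difference of each spot from the control mean of its slide, on the cyfluthrin array where the contig deviated most. The spot farther from the controls is on the horizontal axis and the contig's other spot on the vertical axis. Blue points (48 contigs) lie along the line of equal values or close to it, the farthest being contig_3110 at -2.82 and -1.25. It counts with them because the limit of 1 log2 unit was applied relative to all 8 controls. Red points (25 contigs) lie between -1.77 and 0.67 on the vertical axis and mostly below -3 on the horizontal axis, and 1 of them is on the high side.

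The 48 contigs whose spots agreed on the most deviant array, called read alike by both spots here, are described first, by the array on which they deviated. Replicate 3 accounted for 18 of them, 9 high and 9 low. Replicate 1 accounted for 10, 9 high and 1 low, and replicate 8 for 8, 6 low and 2 high. Replicate 2 had 6, 3 in each direction, replicate 4 had 3 high and 1 low, and replicate 6 had 1 of each. Their control means ran from 7.03 to 12.1 log2 units. All but 1 of the 48 were above background on the deviant array. Without that array 32 of the 48 had a cyfluthrin SD under 0.5 and 6 had a ratio under 1, against 21 and 15 of the 25 whose spots disagreed.

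**Figure D3:**
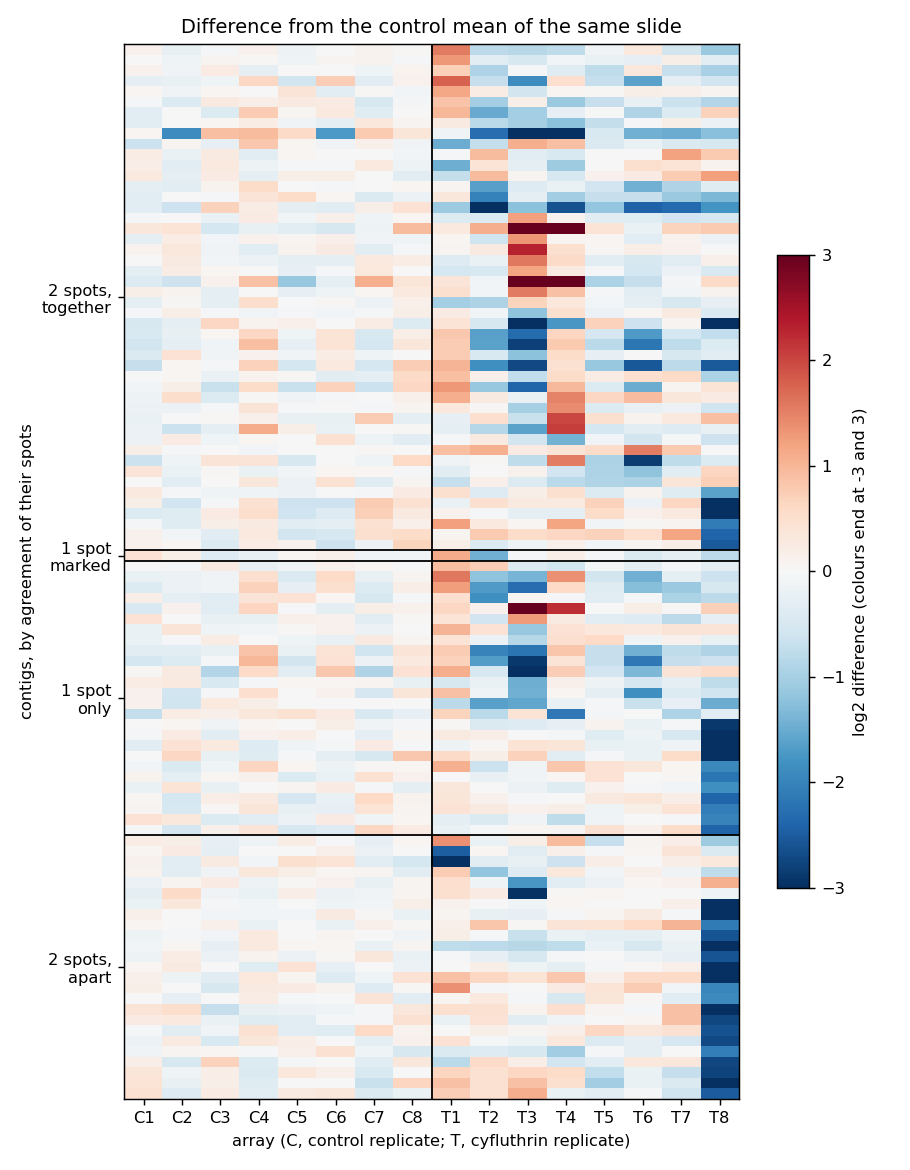
Log2 difference of each of the 100 contigs (lines) from the control mean of the same slide, on the 8 control arrays (C1 to C8) and the 8 cyfluthrin arrays (T1 to T8). Contigs are grouped by the agreement of their spots. In the upper block (48 contigs) blocks of colour fall on T1, T3 and T4, while in the lowest block (25 contigs) nearly all deep colour is on T8.

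On cyfluthrin replicate 3, 9 contigs read alike by both spots were highest. The median difference of these 9 from the slide's controls was 1.57 log2 units on replicate 3 and 0.49 on replicate 4, and between -0.31 and 0.05 on the other 6 cyfluthrin arrays, replicate 7 included. The largest deviation from the slide's cyfluthrin mean was that of contig_1055. Its control signals ran from 9.24 to 12.49 with a median of 10.51 (mean 10.63 ± 1.13 SD, n = 8), and its cyfluthrin signals from 9.78 to 15.44 with a median of 10.72. Replicate 3 read 15.44 and replicate 4 read 13.42, both above all 8 controls, while the other 5 arrays of the rule lay within the control range. On replicate 3 the contig was 47.9-fold above the mean of that slide's controls, and its spots gave differences of 5.65 and 5.51 log2 units.

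The remaining contigs named from this set were picked after their values had been seen. In contig_2009 the pattern was much the same. Its controls lay between 5.90 and 8.72, replicate 3 read 12.20 and replicate 4 read 10.04, and the other 5 arrays lay between 6.73 and 8.55. On replicate 3 it was 54.9-fold above the slide's controls. Both contigs were thus highest on replicate 3, second highest on replicate 4 and inside the control range elsewhere. In contig_3760 only replicate 3 left the control range, at 10.53 against a highest control of 8.83. Replicate 4 read 8.70 there, inside that range. Across the 9 contigs the pairwise correlation over the 7 cyfluthrin arrays had a median of 0.90, with a range of 0.78 to 0.98. Over the 8 controls the median was 0.15. The grouping by the array of largest deviation in part fixes the first of these correlations and does not touch the second.

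Another 9 contigs read alike by both spots deviated downward on cyfluthrin replicate 3, where 7 of them were lowest and 2, contig_2993 and contig_3578, were lower still on replicate 8. Their median difference from the controls was -2.31 log2 units there, -0.62 on replicate 6, -0.48 on replicate 2 and -0.42 on replicate 8. On replicates 1 and 4 the same contigs stood above the controls, by medians of 0.82 and 0.56. Their spread was thus not owed to replicate 3 alone. Examples, again picked after seeing the values, are contig_1540 and contig_2993. The controls of contig_1540 ran from 11.54 to 12.67 with a median of 12.01 and a mean of 12.04 ± 0.40 (SD, n = 8). All 7 cyfluthrin arrays of the rule lay outside that range, with 9.75 on replicate 3, 10.35 on replicate 6 and 10.42 on replicate 2 at one end and 12.70 on replicate 4 and 12.88 on replicate 1 at the other. In contig_2993 the controls ran from 9.57 to 11.48, and replicates 3 and 8 read 6.87 and 6.83, on different slides. The other 5 cyfluthrin arrays of the rule lay between 9.12 and 11.25. The 9 contigs correlated with a median of 0.80 over the cyfluthrin arrays and 0.36 over the controls. Over the controls, pairs of 3818 contigs meeting the limits had a median of 0.03 and an upper quartile of 0.38, so nothing is read from the 0.36.

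Among the contigs assigned to replicate 3, the largest downward deviation from the slide's cyfluthrin mean was in a contig with a single spot. In contig_3622 replicate 3 read 4.24, against controls of 6.74 to 8.47 with a median of 7.84, a signal 10.9-fold below the slide's controls. No second spot can be set against it. Replicate 1 read 8.79, above all controls, as in the contigs with both spots.

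On cyfluthrin replicate 1, 9 contigs read alike by both spots deviated upward, with a median of 0.99 log2 units above the slide's controls. On replicates 2 and 3, from the same slide, their medians were -0.82 and -0.84, and the medians on the other 5 cyfluthrin arrays lay between -0.58 and -0.23. Of the 10 contigs with the highest ratios, 3 were read alike by both spots on the most deviant array, and 2 of these belong to this set. In contig_3051, with a ratio of 6.99, the controls ran from 9.77 to 10.44 with a median of 10.16 (mean 10.16 ± 0.23 SD, n = 8). Replicate 1 read 11.54 and replicate 6 read 10.64, above all controls, whereas replicates 2, 3, 4 and 8 read 9.15 to 9.22, below all controls. Only replicate 5, at 10.23, lay inside the control range. Exposed samples thus lay on both sides of a narrow control range in this contig.

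In contig_8307, with a ratio of 6.17, replicate 1 read 11.90, against controls of 10.20 to 10.69 with a median of 10.46. The other 6 arrays of the rule read 10.00 to 10.53, and 4 of these lay just under the lowest control. Without replicate 1 its ratio was 1.46, against 3.50 for contig_3051 without that array. The wide spread of contig_8307 thus rested mainly on replicate 1 and that of contig_3051 did not.

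A different case was contig_5682, placed with replicate 1 because its deviation from the slide's cyfluthrin mean was largest there. Its control signals ran from 7.32 to 10.91 with a median of 9.74. Replicate 1 read 9.87, inside that range, whereas replicates 3 and 4 read 2.56 and 3.27, where neither spot was bright enough for the contig to count as above background. The other cyfluthrin arrays of the rule lay between 7.61 and 8.60. This contig was near the lower limit of detection on 2 exposed samples and on 0 controls, and the low values are sensitive to the floor of 5 scaled units, which is 2.32 on the log2 scale.

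On cyfluthrin replicate 2, there were 2 sets of 3 contigs read alike by both spots. Their median differences had the same sign on replicate 7, which the rule had not used. In the high set the median difference from the controls was 0.94 log2 units on replicate 2, 0.78 on replicate 8 and 0.77 on replicate 7, and -0.71 on replicate 1. None of these 3 contigs lay inside the control range on replicate 7. In none of the 3 was replicate 2 the highest of the arrays of the rule. In contig_2559, with the largest upward deviation of the 3 from the slide's cyfluthrin mean, the controls ran from 7.94 to 8.68 with a median of 8.32. Replicates 2, 6 and 7 read 8.69, 8.88 and 8.80, just above the controls, while replicates 1 and 4 read 6.82 and 7.22, well below them. Among these 3 contigs the median correlation was 0.76 over the cyfluthrin arrays and 0.79 over the controls. These medians rest on 3 pairs and are descriptions.

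In the low set the median difference was -2.03 on replicate 2, -1.44 on replicate 6, -1.34 on replicate 8 and -1.12 on replicate 7. Of these 3 contigs, 1 lay inside the control range on replicate 7. Among the contigs assigned to replicate 2, the largest downward deviation was in contig_807, the last contig taken by the rule. Its controls ran from 10.63 to 12.27 with a median of 11.52 (mean 11.53 ± 0.55 SD, n = 8). Its cyfluthrin signals ran from 7.50 on replicate 2 to 10.66 on replicate 5, with a median of 10.0, and replicate 7 read 9.50. Of the arrays of the rule, replicate 5 alone overlapped the controls, and on replicate 2 the signal was 13.3-fold below the slide's controls, with spot differences of -3.75 and -3.73. This contig was low in nearly every exposed sample and unevenly so.

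Among the contigs assigned to replicate 4, the largest upward deviation was that of contig_7094. Replicate 4 read 11.60, replicate 3 read 7.92, and the other 5 cyfluthrin arrays read 8.67 to 9.41, against controls of 8.87 to 10.64 with a median of 9.54. Without replicate 4 its ratio was 0.84, so the other exposed samples were spread less than the controls after centring within slides. Of the controls, replicate 4 lay farthest from its slide's control mean, by 1.12 log2 units, and this widens the control SD. Cyfluthrin replicates 2 and 3 still lay below all controls. The largest downward deviation among them was in contig_870, which has 1 spot, at 5.98 against controls of 7.40 to 9.15 with a median of 8.39. In contig_899, near the limit of the rule, both spots were low on replicate 4, which read 6.58 against controls of 7.40 to 8.24.

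Replicate 6 led in 2 contigs. In contig_3565, with a ratio of 6.85, the controls were close together, between 7.22 and 7.60 with a median of 7.31 (mean 7.34 ± 0.13 SD, n = 8). Of the 7 cyfluthrin arrays 6 lay above all controls, from 7.67 on replicate 3 to 8.79 on replicate 6, and replicate 8 read 7.23, inside the control range. That value is the mean of spots at 6.45 and 8.02. The lower spot lies in the block of replicate 8 with many marked spots, and the other alone would lie above all controls. Replicate 7 read 8.04, also above them. The spots correlated at 0.59, and without replicate 6 the ratio was 4.52. In contig_2508 replicate 6 read 7.42, which was 7.23-fold below the slide's controls, and its controls ran from 8.67 to 10.86 with a median of 9.74. Replicate 3 read 8.56, also below all controls, and the other 5 arrays of the rule lay inside the range of all 8 controls. Relative to its own slide's controls, however, replicate 4 differed by 1.53 log2 units, where those controls lay between -0.64 and 0.38. Replicate 5 differed by -0.95, where its slide's controls lay between -0.47 and 0.59.

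**Figure D4:**
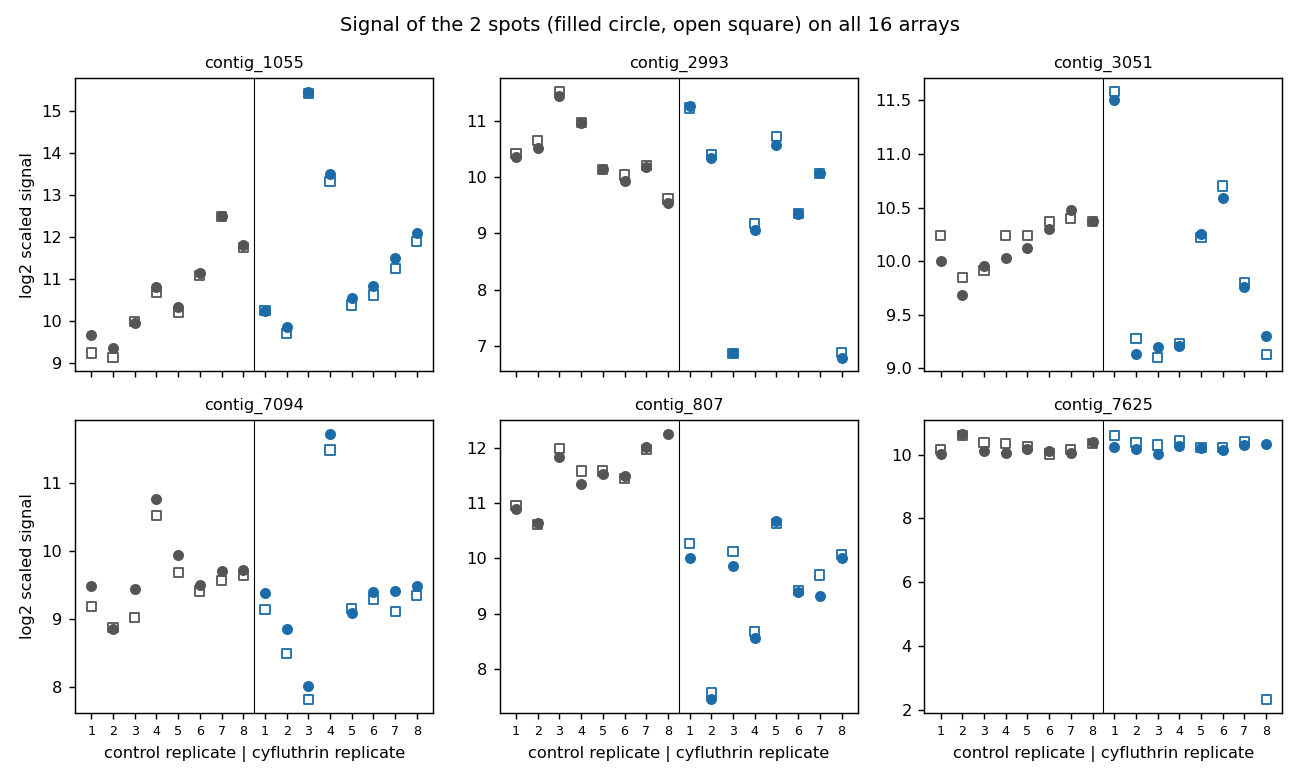
Log2 scaled signal (vertical axes, separate scales) of both spots of 6 contigs on each of the 8 control and 8 cyfluthrin arrays. In 5 of the 6 the filled and open symbols nearly coincide on every array. In contig_7625 the spots lie close together on 15 arrays and read 10.33 and 2.32 on cyfluthrin replicate 8.

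On cyfluthrin replicate 8, 8 contigs were read alike by both spots. The 6 low ones had a median difference of -2.46 log2 units there, and medians between 0.10 and 0.39 on the other 7 cyfluthrin arrays. They correlated with a median of 0.91 over the cyfluthrin arrays and 0.47 over the controls. In contig_2254, picked after seeing the values, replicate 8 read 3.56 and was not above background, against controls of 6.55 to 8.70 and other cyfluthrin arrays of 6.92 to 8.65. Of the 2 high contigs, contig_6684 read 9.79 on replicate 8 against controls of 8.40 to 9.22, and 7.93 to 8.75 on the other 6 arrays of the rule. The other, contig_4724, read 7.78 on replicate 8, inside the control range of 6.71 to 7.79, while replicates 4, 5 and 6 read 6.65, 6.17 and 6.12, below it. Relative to its own slide's controls it was 0.71 log2 units higher on replicate 8, where those controls lay between -0.37 and 0.45.

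The 25 contigs whose spots disagreed included 6 of the 10 with the highest ratios. Of the 25, 19 were lowest on cyfluthrin replicate 8. In contig_7625, with a ratio of 7.43, the controls ran from 10.07 to 10.63 with a median of 10.21 (mean 10.24 ± 0.18 SD, n = 8). Replicate 8 read 6.33 and the other 6 cyfluthrin arrays of the rule 10.16 to 10.42, all inside the control range. The value of 6.33 is the mean of a spot at 10.33, within the control range, and a spot at the floor, 2.32. Relative to the slide's controls the spots differed by 0.15 and -7.88 log2 units, and without replicate 8 the ratio was 0.51. This contig thus showed no wide spread outside that spot.

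In the other 5 of high ratio the spots also disagreed on the most deviant array, but the spread left without that array differed. On replicate 8, contig_8500 read 5.47, with spot differences of 0.05 and -6.17. In contig_4674 the mean was 5.08 and the spots differed from the controls by 0.67 and -4.89. In contig_2482 the mean was 4.52, with spot differences of -0.50 and -4.67, and in contig_3026 it was 7.54, with -0.66 and -5.78. In each of these contigs the mean lay far below the controls while the nearer spot differed from them by -0.66 to 0.67 log2 units. On replicate 1, contig_5210 read 5.0, with spot differences of 0.29 and -5.23. Without the array concerned, the ratios of these 5 contigs lay between 0.53 and 2.03. The ratio was still 2.03 in contig_4674, 1.96 in contig_2482 and 1.34 in contig_5210. In these, the other exposed samples were thus spread more widely than the controls, after centring within slides. The largest downward deviation among contigs assigned to replicate 1, in contig_1654, was of the same kind, with spot differences of -0.71 and -5.89 and a ratio of 0.45 without it.

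The low spots on cyfluthrin replicate 8 were not evenly placed. Of spots with a control mean of 7 or more, 59 of 476 (12.4%) in the block of rows 1 to 48 and columns 51 to 72 were 1.5 log2 units or more under the slide's controls, against 149 of 6768 (2.20%) elsewhere on the array. On the other 15 arrays the block held between 0.0% and 5.89% such spots. The block was drawn after the positions had been seen. Of the 36 contigs lowest on replicate 8, 26 had a spot in it, of which 18 were among the 19 whose spots disagreed. In 17 of these exactly 1 spot lay in the block. That spot differed from the controls by a median of -5.49 log2 units (range -7.88 to -2.82), which is 44.9-fold, and the partner outside by a median of -0.43 (range -1.53 to 0.67). The ranges of the spots inside and outside did not overlap. This follows in part from the choice of contigs with disagreeing spots and from how the block was drawn, so it is a description. Of the 19 spots that the disagreeing contigs had in the block, 12 stood at the floor and 15 were not well above background by the scanner's call, against 0 of their 19 spots outside, so the median of -5.49 depends on the floor.

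**Figure D5:**
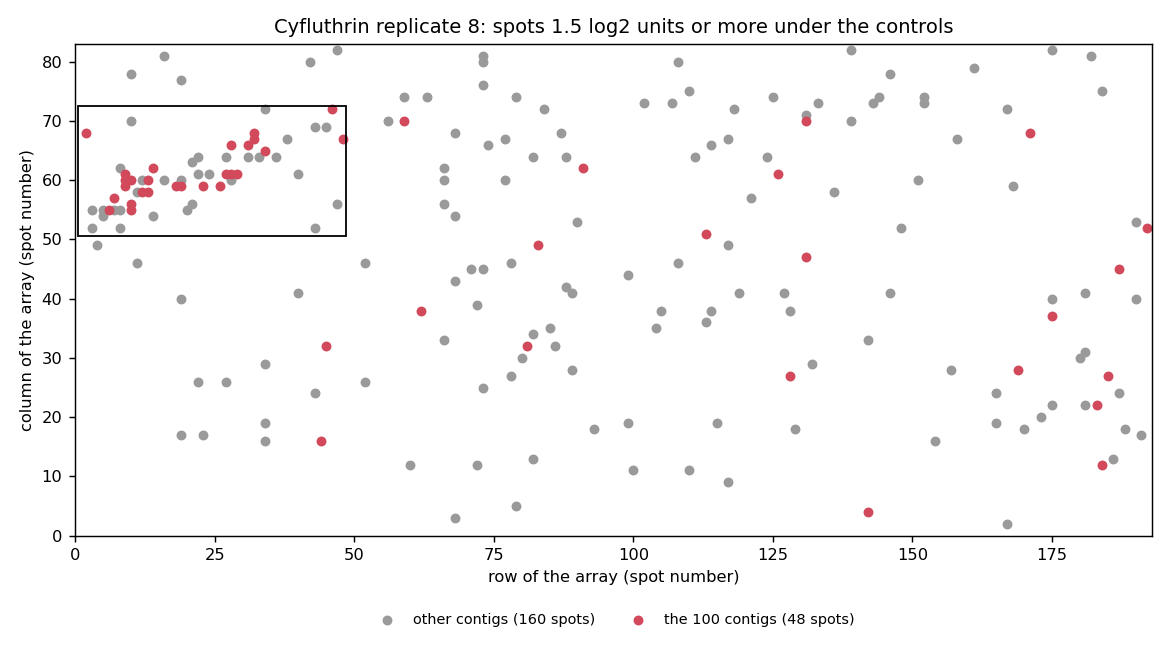
Positions on cyfluthrin replicate 8 of the 208 spots with a control mean of 7 or more that read 1.5 log2 units or more under the slide's controls, by row (horizontal axis) and column (vertical axis) of the array. Red points belong to the 100 contigs and grey points to others, and the rectangle is the block of rows 1 to 48 and columns 51 to 72, which holds 59 of the 208. Within it the points lie along a slanting band.

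Among the 11 contigs with 1 spot that were lowest on replicate 8, 7 had that spot in the block. They include contig_8115, which has the highest ratio of all, 10.09. Its controls ran from 8.48 to 8.76 with a median of 8.62 (mean 8.62 ± 0.10 SD, n = 8). Replicate 8 read 5.69 and the other 6 cyfluthrin arrays of the rule 8.21 to 8.70, 4 of them just under the lowest control. No second spot was available to check the value on replicate 8. The largest downward deviation on that array, in contig_580, was also in the block and at the floor, 2.32, against controls of 6.30 to 8.29 with a median of 7.09, and was not above background. Over all 36 contigs lowest on replicate 8, the median difference from the controls was -2.61 log2 units on that array and between -0.04 and 0.14 on the other 7 cyfluthrin arrays. When the spots of replicate 8 in the block were left out, an alternative added after the data were seen, the rule chose 76 of the 100 contigs again and 14 of its new 100 were low on replicate 8. When all contigs with 1 spot, or with spots 1 log2 unit or more apart on any array, were left out, 42 of the 100 remained. All 42 were chosen again, which was fixed in advance because leaving contigs out does not change the ratios.

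Correlations between the contigs were taken over all 7 cyfluthrin arrays, the array of the largest deviation included. The median pairwise correlation over the 7 cyfluthrin arrays was 0.12 for the 100 contigs, 0.03 for the 48 read alike by both spots and 0.86 for the 25 whose spots disagreed, against 0.05 for 3817 contigs meeting the limits. Over the 8 controls it was 0.02 for the 100 contigs and 0.03 for 3818 contigs meeting the limits. Of the 25, 19 had their largest deviation downward on replicate 8, which bears on the 0.86. These correlations are across few arrays and the contigs share those arrays, so they are given as descriptions. In the 48, the first principal component held 47.8% of the variation over the cyfluthrin arrays and set replicate 3 (0.72) against replicate 1 (-0.63). The second held 22.2% and was led by replicate 8 (0.68), and the third held 17.1% and set replicate 4 (0.62) against replicate 2 (-0.59). The values were not scaled by contig, so the components are weighted toward contigs with a large SD. The cyfluthrin SDs of the 48 ran from 0.50 to 2.50 with a median of 0.70. With that weighting, the variation fell on several components and not 1. The share of contigs with 2 spots, 74.0% of the 100 and 73.3% of the 3835, was alike, and the 3 probe sets of the design held 40%, 25% and 35% of the 100 against 44.1%, 27.5% and 28.4%.

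Cyfluthrin replicate 7, the exposed sample that the rule did not use, lay inside the control range in 69 of the 100 contigs and in 61.5% of the 3835. The counts were 31 of the 48 read alike by both spots and 19 of the 25 whose spots disagreed. In the set high on replicate 3 it was inside the range in 6 of 9 contigs, in the set low there in 5 of 9, and in the set high on replicate 1 in 7 of 9. These shares are near that of all contigs meeting the limits, and nothing particular to the 100 is read from them.

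The mean signal after cyfluthrin was lower than in the controls in 75 of the 100 contigs, with a median difference of -0.31 log2 units and a range of -2.74 to 1.58. Among the 3835 contigs 56.4% were lower, with a median of -0.04. A limma fit of the level called 164 of 7337 contigs (2.24%) at an adjusted p under 0.05, 78 higher (1.06%) and 86 lower (1.17%), and 1 of the 100, contig_807, which was lower. The rule required overlapping ranges in this same contrast, so nothing is read from these counts.

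The slides were not used by the rule, since each was centred. The term of slide by group, which asks whether the difference between cyfluthrin and control differed between the slides, was called by limma for 0 of 7332 contigs (0.0%) and for 0 of the 100. At an unadjusted p under 0.05 limma gave 366 of 7332 and 5 of the 100. In simulated data the fit recovered 69.5% of 200 contigs given a difference of 2 log2 units. The simulated noise had the spread of the controls, whereas the 100 contigs were picked for a wider spread among the cyfluthrin arrays. That spread enters the error of this test, so the simulated share does not carry over to them. The 0 of the 100 is thus not read as an absence of a difference between the slides. The level itself differed between slides in 1773 of 7336 contigs (24.2%) at an adjusted p under 0.05 in limma, 1097 higher (15%) and 676 lower (9.21%) on slide 2, and in 6 of the 100, 4 higher and 2 lower. The contigs were picked for a wide spread within slides, which enters the error of this test, so their share is not set against that of all contigs. The largest of these 6 slide differences, named after its value was seen, was in contig_4904, by 1.94 ± 0.21 log2 units (SE), with an adjusted p of 2.5e-05 in limma.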

How the data were processed

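Single-colour (Cy3) arrays of 8 control and 8 cyfluthrin whole-body samples from laboratory A were used, grouped by their labels. Per the file headers, the spot intensities come from version 10.7.3.1 of Agilent Feature Extraction (the submitters' processing notes name version 9.1), and the processed intensity deposited by the authors is background-subtracted and spatially detrended, per the file headers, but not normalized between arrays. The log2 values in the authors' deposited table, centred by probe as judged from the values, served only as an alternative, and how they were centred is stated in no source used here.

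Non-control spots (15208) were scaled to equal 75th percentiles, floored at 5, logged to base 2 and averaged per probe after spots called outliers by the scanner were dropped. A contig is above background when at least 0.5 of its spots are. Contigs above background on at least 4 arrays of a group were fitted with limma 3.58.1 in R 4.3.3 (Benjamini-Hochberg adjusted p under 0.05), without cyfluthrin replicate 7. Everything else was computed in Python 3.11.15. The fits were tested on simulated data, in which the level fit recovered 89.5% of 200 contigs shifted by 2 log2 units. The number of arrays limits the precision. Contigs named were the 10 with the highest ratios, the largest upward and downward deviation on each array, and 3 on either side of the limit. Others are stated to have been picked after seeing values. The contigs and the rule were chosen with earlier results of these data known.

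Alternatives covered scaling, background correction, floor, filter, slide, replicate block, cyfluthrin replicate 7, the authors' table and leaving out each array.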

Additional observations from a re-analysis of the deposited data

Results flagged for a closer look

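In groups of 7 or 8 arrays, a sample was singled out where its gap to the nearest other sample was large against the whole range (Dixon's test, 95% critical values). Of 74 groups examined 18 met this, 2 of them control groups, and chance alone gives about 1 in 20. The 100 contigs were chosen for such gaps among the cyfluthrin arrays, so the flags in these contigs follow from the choice.

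On cyfluthrin replicate 8 the log2 signal was lowest by a wide gap in contig_8115 (5.69, next lowest 8.21), contig_7625 (6.33, next 10.16), contig_8500 (5.47, next 8.41), contig_4674 (5.08, next 7.31), contig_2482 (4.52, next 6.69), contig_3026 (7.54, next 10.29), contig_580 (2.32, next 6.35) and contig_1604 (7.17, next 8.49), the last just outside the rule. On cyfluthrin replicate 1 it was highest in contig_8307 (11.9, next 10.53) and lowest in contig_5210 (5.0, next 7.17) and contig_1654 (4.88, next 7.55). On cyfluthrin replicate 4 it was highest in contig_7094 (11.6, next 9.41), and on control replicate 4 in contig_2482 (7.65, next 7.31).

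Of the array measures, cyfluthrin replicate 7 had the highest 75th percentile (950, next 577) and the highest median negative-control signal (73.5, next 51). Cyfluthrin replicate 8 had the highest share of low spots in the block of rows 1 to 48 and columns 51 to 72 (12.4%, next 5.89%), and cyfluthrin replicate 1 the highest share of low spots outside it (4.88%, next 2.50%). Control replicate 4 had 29 contigs at least 1 log2 unit below every other control, against 6 on the next control array. The same count among the cyfluthrin arrays of the rule was larger, at 112 on replicate 1 and 101 on replicate 8, but no array was singled out there.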

How the results depend on the processing

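The choice of contigs depended on the processing more than their median ratio did. Of the 100, normexp background correction with quantile normalization chose 57 again. A control mean limit of 8 kept 65, and the use of contigs with agreeing duplicate spots, added after seeing the data, kept 42. Both of these limits only remove contigs and leave the ratios unchanged, so every contig kept was bound to be chosen again. Their counts show only how many of the 100 passed. With agreeing duplicate spots the median pairwise correlation turned from 0.12 to -0.03. Leaving out 1 array at a time chose 59 to 91 again, with 59 without cyfluthrin replicate 8 and 66 without control replicate 4. It gave median ratios of 2.35 to 3.08 and correlations of 0.10 to 0.20. Of 586 ratios of 23 named contigs over the alternatives, 584 moved by less than their jackknife error and 10, in 6 contigs, were under 1. That error is computed from the ratios with 1 array left out, so it is wide where 1 array carries the ratio. Stability is therefore not read from the 584. Without cyfluthrin replicate 8 the ratio fell from 10.09 to 1.99 in contig_8115 and from 7.43 to 0.51 in contig_7625.

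For all contigs, the 164 calls of level became 307 with slide as a block, 12 within slide 1 and 58 within slide 2, and 121 to 164 with 1 array left out. The replicate block gave 160 calls, and same-numbered samples correlated over 0.1 in 6 of 8 pairs, which does not pair them. The 2 calls of spread were unstable. They became 8 with normexp, 0 with the authors' table, 0 with a floor of 1, 147 with a floor of 20, 102 with cyfluthrin replicate 7, 196 with no filter, 0 with a filter on all arrays and 1 with slide not removed. With 1 array left out they became 0 to 99, with 99 without cyfluthrin replicate 6, 57 without replicate 5 and 13 without replicate 8. Slide calls, 1773, became 2695 with median scaling and 1364 to 2073 with 1 array left out, and slide by group calls 0 to 2, with 2 without control replicate 2. The causes were not tested.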
